A study of Mus musculus with 8 samples.

Results

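The genes described here are 10 members of the matrix metalloproteinase system: 6 matrix metalloproteinases (MMPs), namely Mmp2, Mmp3, Mmp9, Mmp10, Mmp13 and Mmp14, and the 4 tissue inhibitors of metalloproteinases, Timp1 to Timp4. They were taken by name, and all 10 had at least 1 probe set that the array's annotation gives to that gene alone, among 18193 such genes in all. Each gene is represented by its probe set with the highest mean over the 8 arrays, and the genes had 23 such probe sets together. The cells were mouse cells on a C57BL/6 background, labelled as reprogramming cells, in a secondary system in which doxycycline, written as 2 mg per ml, switches on Oct4, Sox2, Klf4 and Myc (OSKM). The groups were CSA at day 6, DMSO at day 6, CSA at day 3 and DMSO at day 3 of reprogramming, with 2 arrays each, described by the submitters as separate biological repeats. CSA, read here as cyclosporin A, which inhibits the phosphatase calcineurin and thereby NFAT transcription factors, was given at a dose written as 10 mM, and DMSO is the solvent control. Both doses are printed with the units of the labels, which were not checked and may be off by the step from micro to milli. Every group, controls included, carried the 4 factors under doxycycline and was kept in mouse stem cell medium holding 15% serum and leukemia inhibitory factor at 100 units per ml. The sources used here do not give the cell type that was reprogrammed or the day on which CSA was first added. The comparisons asked which genes differ under inhibition of the calcineurin-NFAT pathway at each day.

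MMPs are zinc-dependent proteases that cut proteins of the extracellular matrix and many secreted or membrane proteins, and most are made as inactive precursors that are cut to become active. The TIMPs bind the active site of MMPs and block it. Timp2 also has a part in activation: together with the membrane-bound enzyme Mmp14 it forms a complex on the cell surface that holds the precursor of Mmp2 while another Mmp14 molecule cuts it. Several secreted MMPs, among them the stromelysins Mmp3 and Mmp10 and the collagenase Mmp13, are classical targets of AP-1 factors and respond to growth factors, cytokines and tissue injury, while Timp2 and Mmp2 are usually described as less inducible genes. These are measurements of RNA, and neither protein nor enzyme activity was measured.

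Mmp3, Mmp10 and Mmp13 are part of a run of 10 MMP genes on chromosome 9, in which Mmp13 comes first, Mmp12 and Mmp1b lie between Mmp13 and Mmp3, and Mmp1a lies between Mmp3 and Mmp10. The 250 bases before the annotated start of these 3 genes are shown because they are neighbours and AP-1 targets, and those of Timp2 because it had the largest difference between CSA and DMSO among the inhibitors past the threshold. The sequences are those of RefSeq on build GRCm38.p6, written along the gene's strand. Capitals mark matches, on either strand, to 4 motifs: AP-1 (TGAGTCA, or TGACTCA on the other strand), PEA3, a site of ETS factors (AGGAAG or CTTCCT), the NFAT core (GGAAA or TTTCC) and the TATA box (TATAAA or TTTATA).
Mmp3, chr9:7445572-7445821, strand +: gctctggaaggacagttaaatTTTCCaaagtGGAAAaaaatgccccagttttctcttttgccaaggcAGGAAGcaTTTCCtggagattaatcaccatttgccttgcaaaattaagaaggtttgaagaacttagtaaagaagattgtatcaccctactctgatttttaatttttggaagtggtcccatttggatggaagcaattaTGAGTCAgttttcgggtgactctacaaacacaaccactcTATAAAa
Mmp10, chr9:7502092-7502341, strand +: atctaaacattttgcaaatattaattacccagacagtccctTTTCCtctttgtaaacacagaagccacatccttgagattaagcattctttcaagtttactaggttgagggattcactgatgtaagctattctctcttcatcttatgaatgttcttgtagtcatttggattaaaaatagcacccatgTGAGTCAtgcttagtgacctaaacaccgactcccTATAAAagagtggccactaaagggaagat
Mmp13, chr9:7272264-7272513, strand +: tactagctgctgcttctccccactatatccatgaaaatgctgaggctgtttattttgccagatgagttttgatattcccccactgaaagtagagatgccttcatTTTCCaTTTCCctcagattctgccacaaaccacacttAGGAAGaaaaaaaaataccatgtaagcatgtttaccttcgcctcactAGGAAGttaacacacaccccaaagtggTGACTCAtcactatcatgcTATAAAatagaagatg
Timp2, chr11:118355412-118355661, strand -: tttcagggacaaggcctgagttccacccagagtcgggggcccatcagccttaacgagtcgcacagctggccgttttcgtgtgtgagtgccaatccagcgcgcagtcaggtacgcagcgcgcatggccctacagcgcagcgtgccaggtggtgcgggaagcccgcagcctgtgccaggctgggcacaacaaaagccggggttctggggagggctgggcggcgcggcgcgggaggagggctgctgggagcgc
The AP-1 letters began at position -46 from the start in Mmp3, at -63 in Mmp10 and, on the opposite strand, at -35 in Mmp13, and the TATA letters lay between each of them and the start, beginning at -7, -29 and -16. None of the 4 motifs was found in the Timp2 window. Promoter windows were held for 8 of the 10 genes, and Mmp14, Timp1, Timp3 and Timp4 had neither AP-1 nor TATA letters in theirs. Among all 32851 windows of this length, 4.46% held the AP-1 letters, 12.4% the TATA letters, 29.5% the PEA3 letters and 55.6% the NFAT core. Of the 8 genes 5 held the NFAT core and 6 the PEA3 letters, and no matches of different motifs overlapped in any of them. A match is a string of letters and not a measured binding site.

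**Figure D1:**
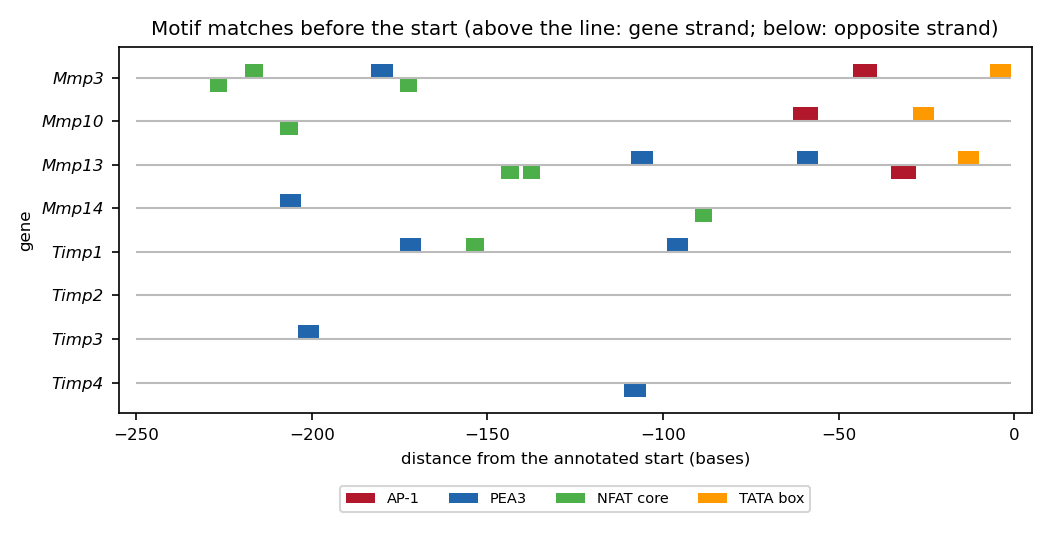
Matches to 4 motifs in the 250 bases before the annotated start of 8 genes, drawn by distance from the start in bases, above the line on the gene's strand and below it on the opposite strand. AP-1 and TATA letters are seen in Mmp3, Mmp10 and Mmp13, and Timp2 has no match.

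All values are log2 signals of Affymetrix 3' arrays as deposited, after MAS5, so a difference of 1 is a doubling. Log2 signals correlated at 0.968 to 0.974 between the arrays of a group and at 0.918 to 0.963 between arrays of other groups. The median log2 signal of the tested probe sets was higher on the day 6 arrays than on the day 3 arrays, by 0.22 in CSA and 0.25 in DMSO, while treatments at the same day differed by -0.02 at day 6 and 0.01 at day 3. Differences between days therefore depend on how this shift of the array medians is scaled, and those between treatments hardly depend on it. The ± sign gives the moderated standard error from limma, for n = 2 arrays per group, and the Benjamini-Hochberg adjustment ran over 27022 probe sets. The threshold was an adjusted p of 0.05. With 2 arrays a group the number of arrays limits the precision. Probe sets averaging under 5.37 across the 8 arrays were not tested, which left 8 of the 10 genes. Mmp9 and Mmp13 were below that limit, and Mmp3 passed it only through its day 6 arrays. In cultures measured as a whole, fewer cells of a type and less RNA per cell cannot be told apart.

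The representatives were brightest for the inhibitors Timp2, Timp1 and Timp3, with means over the 8 arrays of 12.96, 12.86 and 12.83. Mmp14 followed at 11.16, Mmp2 at 9.35 and Mmp3 at 7.09, and Mmp10 and Timp4 were dim at 5.74 and 5.52. Signals of different probe sets depend on their probes, so this order is one of brightness on the array and not of transcript abundance.

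**Figure D2:**
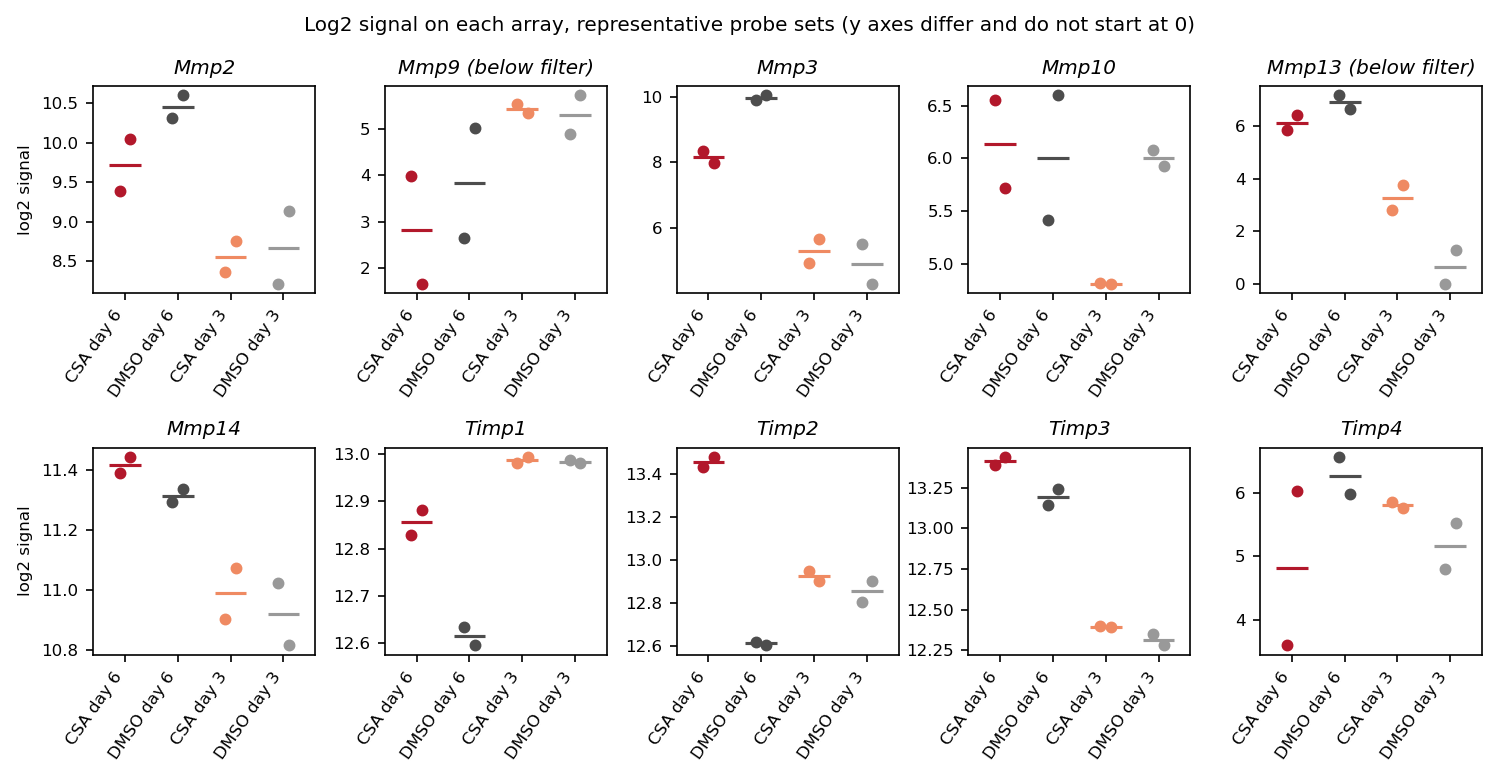
Log2 signal of the 10 genes on each array (points) with the mean of each group (lines), from CSA at day 6 on the left to DMSO at day 3 on the right, each gene on its own y axis. Timp2 is highest in CSA at day 6, Mmp3 and Mmp2 are highest in DMSO at day 6, and the points of Mmp9, Mmp10 and Timp4 are widely spread.

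At day 6 the inhibitor Timp2 was higher with CSA than with DMSO by 0.84 ± 0.06 on the log2 scale, the stromelysin Mmp3 fell by 1.80 ± 0.40, and smaller rises of Timp1 and Timp3 passed the threshold. Counted over the tested genes, 3 rose and 1 fell of 8, against 6.41% of all 12529 tested genes that rose and 6.11% that fell, or 12.5% in either direction. The 3 that rose were all inhibitors. The median difference was -0.32 over the 4 tested MMPs of this set and 0.23 over the 4 TIMPs, against -0.01 over all genes. Over the 5 other tested MMPs, outside this set, it was 0.40. Within the set, Mmp3 alone passed among the MMPs, Mmp10 and Mmp14 lay slightly above 0, and Timp4 lay below 0. These medians describe 4 or 5 genes each and are not a test of the family.

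Mmp3, stromelysin 1, which digests proteoglycans, laminin and fibronectin and can activate other MMP precursors, had log2 signals of 8.36 and 7.99 on the CSA arrays of day 6, against 9.91 and 10.04 on the DMSO arrays. Both CSA arrays lay below both DMSO arrays. The difference of -1.80 ± 0.40 corresponds to a 3.48-fold lower signal with CSA (limma adjusted p = 0.0155), the 29th most negative among the 12529 genes. The call ended when DMSO replicate 1, DMSO replicate 2 or CSA replicate 2 of day 6 was left out (limma adjusted p = 0.0895, 0.121 and 0.108, with differences of -1.87, -1.73 and -1.61) and without the intensity trend in the variance prior (limma adjusted p = 0.106).

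Mmp2, gelatinase A, which degrades denatured collagen and basement membrane collagen, was read by a pair of probe sets. Its representative, 1439364_a_at, gave 9.38 and 10.05 with CSA and 10.31 and 10.60 with DMSO at day 6, without overlap. The difference was -0.74 ± 0.28 and did not pass (limma adjusted p = 0.133). The other probe set, 1416136_at, gave 9.73 and 9.56 with CSA and 10.48 and 10.51 with DMSO, closer together within each group. By that probe set Mmp2 fell by 0.85 ± 0.12 (limma adjusted p = 0.00142). Both probe sets thus gave a difference of similar size in the same direction, and their standard errors differed. Mmp2 also passed with the mean of both probe sets (-0.79, limma adjusted p = 0.0187), with only the 4 arrays of day 6 (0.0369), with the replicate number as a block (0.0133), and where the first probe set was left out for its suffix (0.00120), that is under 4 of 19 other settings.

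Mmp14, the membrane-type enzyme that activates the Mmp2 precursor, gave 11.39 and 11.44 with CSA and 11.29 and 11.34 with DMSO at day 6. The CSA arrays lay just above the DMSO arrays, and 58.1% of all tested genes had no overlap at this day. The difference of 0.10 ± 0.09 did not pass (limma adjusted p = 0.565), and its 95% interval ran from -0.10 to 0.30. Its 3 probe sets gave differences between 0.10 and 0.18, and 0 of them passed with limma. Mmp10, stromelysin 2, gave 6.55 and 5.72 with CSA and 5.41 and 6.60 with DMSO, groups that overlapped, with a difference of 0.13 ± 0.56 and an interval from -1.11 to 1.36.

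Timp2, the inhibitor that also takes part in Mmp2 activation, gave 13.43 and 13.48 with CSA and 12.62 and 12.60 with DMSO at day 6. Its CSA arrays were the 2 highest of all 8 arrays. The difference of 0.84 ± 0.06 is 1.79-fold (limma adjusted p = 1.95e-05). Timp2 was read by 6 tested probe sets, and 5 of them rose with CSA at day 6. Those 5 gave differences of 0.84 for 1460287_at, 0.81 for 1454677_at, 0.99 for 1433662_s_at, 1.10 for 1450040_at and 1.08 for 1420924_at. The sixth, 1437081_at, was dim, with a mean of 5.77, and gave 0.31 ± 0.63 (limma adjusted p = 0.834). The probe sets share the same arrays and RNA and are repeated readings of 1 gene, not replicates.

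Timp3, the inhibitor that binds to the matrix itself, gave 13.39 and 13.44 with CSA and 13.15 and 13.24 with DMSO at day 6. It rose by 0.22 ± 0.06 (limma adjusted p = 0.0477), close to the threshold. All 4 of its probe sets passed at this day, with differences from 0.22 to 0.52, the largest for 1419088_at (0.52 ± 0.07, limma adjusted p = 0.00125). The call of the representative ended without the filter (limma adjusted p = 0.0875), without the trend (0.250), with only the 4 arrays compared (0.0571), and without either CSA or either DMSO array of day 6 or either CSA array of day 3 (0.0809 to 0.274).

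Timp1, an inducible inhibitor that also has growth-promoting effects, gave 12.83 and 12.88 with CSA and 12.63 and 12.59 with DMSO at day 6, also without overlap. The rise of 0.24 ± 0.06 is 1.18-fold (limma adjusted p = 0.0239). The call ended without the trend (limma adjusted p = 0.193) and without DMSO replicate 1, DMSO replicate 2 or CSA replicate 2 of day 6 (0.0868, 0.148 and 0.115). Timp4, an inhibitor best known from heart and fat tissue, gave 3.59 and 6.04 with CSA and 6.58 and 5.98 with DMSO. Its CSA arrays were far apart, and the difference of -1.47 ± 0.76 did not pass (limma adjusted p = 0.278). The second Timp4 probe set, 1423405_at, was below the limit for testing. It gave 2.11 and 3.62 with CSA and 0.71 and 3.50 with DMSO at day 6, overlapping groups whose means differed in the other direction.

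**Figure D3:**
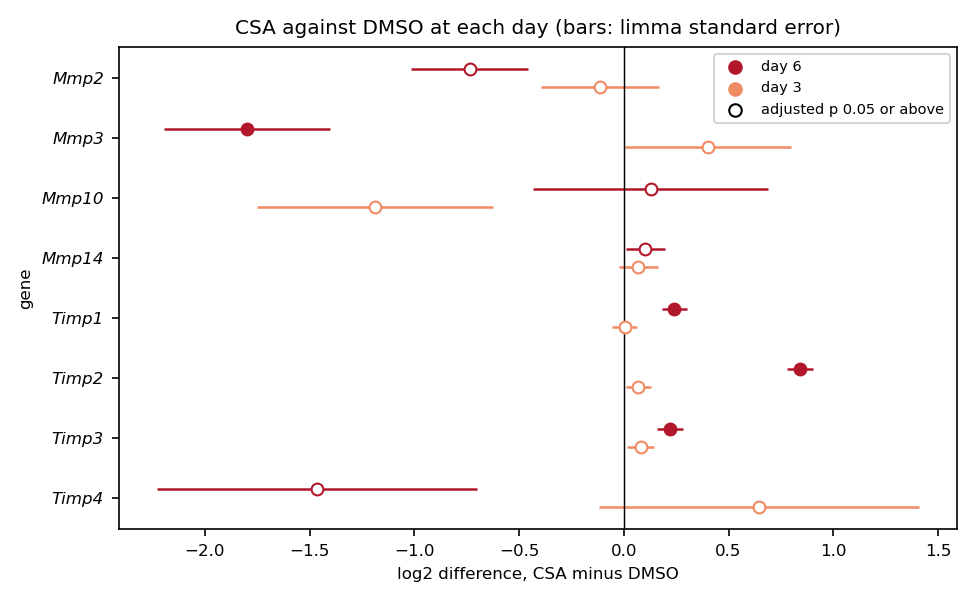
Log2 difference between CSA and DMSO at day 6 and at day 3 for the 8 tested genes, with limma's standard error as bars and filled points for an adjusted p under 0.05. The filled points are Mmp3 below 0 and Timp1, Timp2 and Timp3 above 0, all at day 6.

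At day 3, 0 of the 8 tested genes passed with limma by their representative probe sets, and 0 had an unadjusted p under 0.05, against 12.7% of all tested genes past the threshold in either direction, 7.14% higher and 5.52% lower. Timp1 gave 12.98 and 12.99 with CSA and 12.99 and 12.98 with DMSO, with a difference of 0.0038 ± 0.06 and a 95% interval from -0.12 to 0.13. Timp2 gave 12.95 and 12.90 with CSA and 12.81 and 12.90 with DMSO, with a difference of 0.07 ± 0.06 and an interval from -0.06 to 0.20. Timp3 differed by 0.08 ± 0.06 and Mmp14 by 0.07 ± 0.09. These values are those of the representatives, and other probe sets of Timp2 gave larger differences at this day.

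The dimmer genes were measured less tightly at this day. Mmp3 gave 4.94 and 5.68 with CSA and 5.51 and 4.31 with DMSO, overlapping groups of low signals, with a difference of 0.40 ± 0.40. Mmp10 gave 4.82 and 4.81 with CSA and 6.08 and 5.92 with DMSO, lower with CSA on both arrays, and 56.5% of all tested genes had no overlap at this day. That difference was -1.19 ± 0.56 and did not pass (limma adjusted p = 0.231, unadjusted p = 0.0580). Mmp2 differed by -0.11 ± 0.28 by its representative and by -0.40 ± 0.12 by 1416136_at, whose CSA arrays of 8.10 and 8.25 lay below the DMSO arrays of 8.59 and 8.56, without passing (limma adjusted p = 0.0676). Timp4 differed by 0.64 ± 0.76. Of the 6 Timp2 probe sets 1 passed at day 3: 1420924_at gave 9.68 and 9.65 with CSA and 9.16 and 9.29 with DMSO (0.44 ± 0.10, limma adjusted p = 0.0219).

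**Figure D4:**
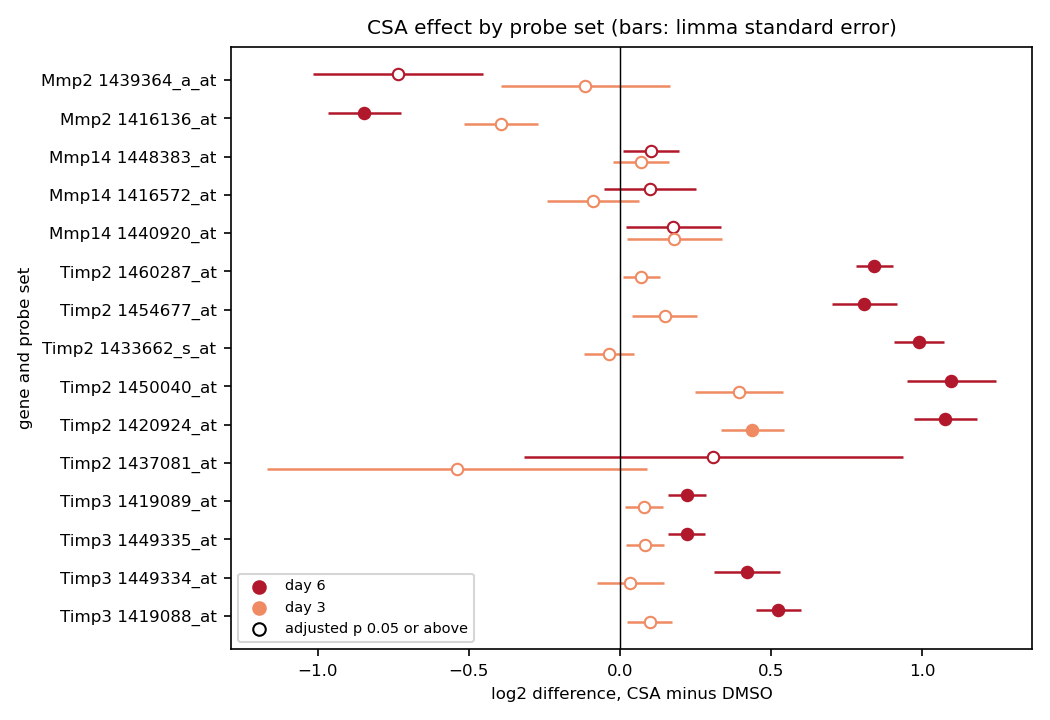
Log2 difference between CSA and DMSO for each tested probe set of Mmp2, Mmp14, Timp2 and Timp3 at day 6 and at day 3, with limma's standard error as bars and filled points for an adjusted p under 0.05. At day 6, 5 of 6 Timp2 and 4 of 4 Timp3 probe sets are filled, and 1 of 2 Mmp2 probe sets.

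The difference between the CSA effects at the 2 days was tested as the day by CSA interaction. Timp2 passed, with an effect larger by 0.77 ± 0.09 at day 6 than at day 3 (limma adjusted p = 0.00124), against 5.79% of tested genes past the threshold in either direction, 2.36% higher and 3.43% lower. Of its 6 probe sets 4 passed, and those 4 and 1450040_at, which did not pass (limma adjusted p = 0.0862), gave between 0.64 and 1.03. Mmp3 gave -2.20 ± 0.56 and did not pass (limma adjusted p = 0.0513), a value that rests on dim day 3 signals whose group means were under the limit for testing. For Timp1 the difference was 0.24 ± 0.08 (limma adjusted p = 0.141) and for the Timp3 representative 0.14 ± 0.09 (limma adjusted p = 0.435), so their smaller effects at day 3 were not shown to differ from those at day 6. Of the Timp3 probe sets 1 passed: 1419088_at, at 0.43 ± 0.10 (limma adjusted p = 0.0454). Mmp14 gave 0.03 ± 0.13, with an interval from -0.25 to 0.32.

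From day 3 to day 6 the MMPs Mmp3, Mmp2 and Mmp14 and the inhibitor Timp3 rose in both treatments, whereas Timp1 fell in DMSO. In CSA 5 of 8 genes rose and 0 fell with limma, against 20.2% and 15.8% of all tested genes. In DMSO 4 rose and 2 fell, against 26.1% and 19.6%. These counts are of representatives, and 1 of the 2 that fell is Timp2, of whose 6 probe sets 4 rose. The genes that rose include Mmp3, which passed the limit for testing only through its day 6 arrays. They also include Mmp14, whose rises did not pass relative to the array medians, and of whose 3 probe sets 2 passed in each treatment. The 2 comparisons of days share no arrays, but between 36.1% (CSA) and 45.7% (DMSO) of all genes passed, so a change over the days was common.

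Mmp3 gave 8.36 and 7.99 at day 6 and 4.94 and 5.68 at day 3 in CSA, and 9.91 and 10.04 at day 6 and 5.51 and 4.31 at day 3 in DMSO. All day 6 arrays lay above all day 3 arrays, where 69.1% of tested genes in CSA and 73% in DMSO had no overlap between days. The rise was 2.86 ± 0.40 in CSA (limma adjusted p = 0.000301) and 5.06 ± 0.40 in DMSO (limma adjusted p = 2.98e-06). The means of the day 3 groups, 5.31 in CSA and 4.91 in DMSO, were below the limit for testing, which Mmp3 passed through its day 6 arrays, so these tests are not independent of the filter and the size of the rise is uncertain. Over the other settings it ran from 2.15, with a pseudocount, to 3.23 in CSA and from 4.03, likewise, to 5.67 in DMSO.

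Mmp2 rose by 1.15 ± 0.28 in CSA (limma adjusted p = 0.00948) and by 1.78 ± 0.28 in DMSO (limma adjusted p = 0.000407). Its second probe set gave 1.47 ± 0.12 and 1.92 ± 0.12, both past the threshold. The call of the representative in CSA ended without CSA replicate 1 of day 3 (limma adjusted p = 0.0821), without CSA replicate 2 of day 6 (0.0910) and without the trend (0.0832). Mmp14 rose by 0.43 ± 0.09 in CSA (limma adjusted p = 0.00471) and by 0.40 ± 0.09 in DMSO (limma adjusted p = 0.00501). Relative to the array medians, these rises were 0.21 and 0.15 and did not pass (limma adjusted p = 0.107 and 0.245), and the call in CSA also ended without CSA replicate 1 of day 3 (0.0558) and without the trend (0.0524). Of the 3 Mmp14 probe sets 2 passed in each treatment. The remaining probe set, 1416572_at, gave 0.31 ± 0.15 in CSA and 0.13 ± 0.15 in DMSO (limma adjusted p = 0.145 and 0.550). Mmp10 changed by 1.32 ± 0.56 in CSA and 0.0039 ± 0.56 in DMSO, without passing in either.

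Timp3 rose by 1.02 ± 0.06 in CSA (limma adjusted p = 1.40e-06) and by 0.88 ± 0.06 in DMSO (limma adjusted p = 1.65e-06). Its levels were 13.39 and 13.44 at day 6 and 12.40 and 12.39 at day 3 in CSA, and 13.15 and 13.24 at day 6 and 12.35 and 12.28 at day 3 in DMSO. All 4 of its probe sets rose in both treatments. Timp1 fell in DMSO by 0.37 ± 0.06 (limma adjusted p = 0.000392), and under quantile normalization that call ended (-0.13, limma adjusted p = 0.0788). In CSA its change of -0.13 ± 0.06 did not pass (limma adjusted p = 0.112), passed relative to the array medians (-0.35, limma adjusted p = 0.000873), and was 0.04 under quantile normalization. Timp4 gave -0.997 ± 0.76 in CSA and 1.11 ± 0.76 in DMSO, neither past the threshold.

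Timp2 differed between its probe sets in the day course of the control. In CSA the representative rose by 0.53 ± 0.06 (limma adjusted p = 9.20e-05), and 5 of its 6 probe sets rose, by 0.53 to 1.503. In DMSO the representative fell by 0.24 ± 0.06 (limma adjusted p = 0.00814), while 4 others rose, by 0.32 to 0.80. The difference of the representative was 0.0065 under quantile normalization, and its call also ended without the trend (limma adjusted p = 0.0892) and without DMSO replicate 2 of day 3 or of day 6 (limma adjusted p = 0.0549 and 0.0517). The mean of the 6 probe sets was 0.24 higher at day 6 than at day 3 in DMSO, without passing (limma adjusted p = 0.177). No direction is therefore given for Timp2 over the days in DMSO. The 5 bright probe sets did have in common that they rose over the days in CSA and either rose less or fell in DMSO.

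**Figure D5:**
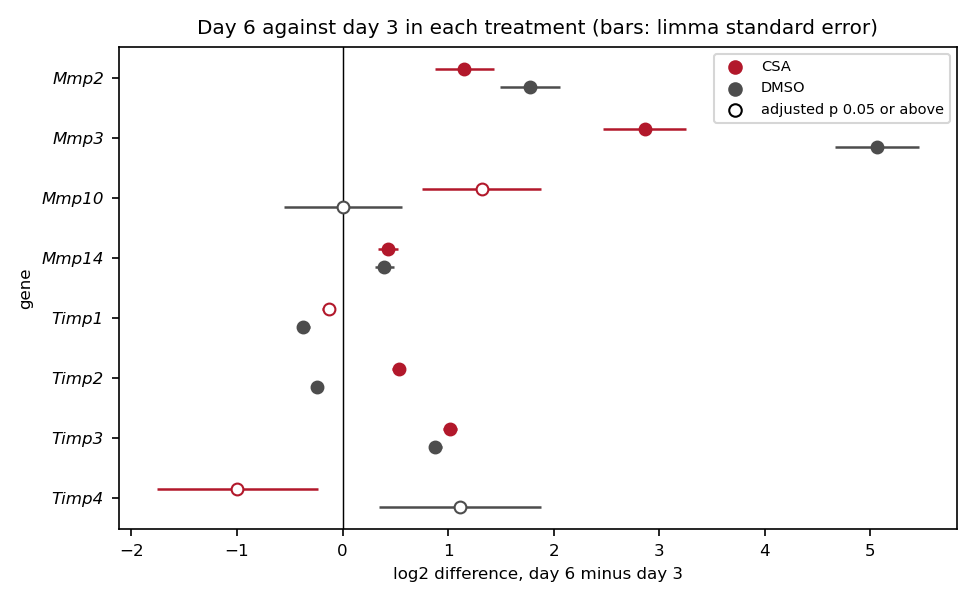
Log2 difference between day 6 and day 3 in CSA and in DMSO for the 8 tested genes, with limma's standard error as bars and filled points for an adjusted p under 0.05. Mmp3 lies at 2.86 in CSA and 5.06 in DMSO, and the Timp2 representative lies above 0 in CSA and below 0 in DMSO.

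Mmp13 and Mmp9 were below the limit for testing and are given by their values. Mmp13, collagenase 3, which cuts fibrillar collagen, was at 5.85 and 6.45 in CSA and 7.18 and 6.68 in DMSO at day 6, and at 2.82 and 3.75 in CSA at day 3. On the DMSO arrays of day 3 it was listed at 0, the lowest value of the table, and at 1.27. All 4 arrays of day 6 lay above all 4 arrays of day 3, and at day 6 the CSA arrays lay below the DMSO arrays. Mmp3 had the same order, while the groups of Mmp10, in the same run, overlapped at day 6 and between days in DMSO. Of all tested genes 58.1% had no overlap between treatments at day 6, and 69.1% in CSA and 73% in DMSO had none between days. In a fit with no filter Mmp13 did not pass for CSA at day 6 (limma adjusted p = 0.79). No fold is given, since 1 array is listed at 0. Mmp9, gelatinase B, abundant in neutrophils and macrophages and also made by keratinocytes, was at 3.98 and 1.67 in CSA and 2.64 and 5.003 in DMSO at day 6, and at 5.52 and 5.33 in CSA and 4.89 and 5.71 in DMSO at day 3. Its second probe set was also below the limit, between 2.35 and 5.87, and no difference is read for Mmp9.

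Other genes of pericellular proteolysis were looked at by list, and each count stands against 6.41% of all tested genes higher and 6.11% lower with CSA at day 6, and 7.14% higher and 5.52% lower at day 3. Of 17 further MMPs, 12 had a probe set and 5 were tested, and 0 passed with limma for CSA at day 6 or at day 3. The median difference of those 5 was 0.40 at day 6 and 0.25 at day 3. At day 6 1 of them, the membrane-type Mmp16, had an unadjusted p under 0.05 (0.97 ± 0.31, limma adjusted p = 0.0757), and 0 did at day 3. Mmp12, Mmp1b and Mmp1a, which lie between Mmp13 and Mmp10 in the run, were all below the limit. Of 9 tested ADAM proteases 2 rose at day 6, Adam15 by 0.53 ± 0.08 and the sheddase Adam9 by 0.29 ± 0.06, and at day 3 Adam15 rose by 0.46 ± 0.08. Of 10 tested ADAMTS proteases 2 rose at day 6: the aggrecanase Adamts5 by 1.54 ± 0.15 (limma adjusted p = 0.000118) and Adamts1 by 0.88 ± 0.22. At day 3 Adamts5 rose by 0.73 ± 0.15 (limma adjusted p = 0.0102).

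Of 7 tested genes of plasminogen activation, the system that produces plasmin, an activator of MMP precursors, Serpinb2, an inhibitor of the urokinase-type activator, rose at day 6 by 1.70 ± 0.39 (limma adjusted p = 0.0193), and the plasminogen-binding annexin Anxa2 fell at day 3 by 0.23 ± 0.06. The urokinase gene Plau itself was below the limit. Among 12 tested genes that activate, dock or restrain MMPs, Cav1, the main protein of caveolae, rose at day 6 by 0.59 ± 0.07 and at day 3 by 0.40 ± 0.07. In the same list Thbs1, a matricellular protein that binds MMPs, rose by 0.28 ± 0.07 at day 6 and by 0.33 ± 0.07 at day 3, and Lrp1, a receptor that takes up MMPs and their inhibitors, rose at day 3 by 0.61 ± 0.09. Reck, a membrane-anchored MMP inhibitor, was at -0.03 ± 0.18 at day 6 and rose from day 3 to day 6 in both treatments, by 1.73 ± 0.18 in CSA and 1.99 ± 0.18 in DMSO. Of 12 tested cathepsins and cystatins 5 rose at each of the days and 0 fell, where 6.41% of all tested genes rose at day 6 and 7.14% at day 3. They included at both days the collagen-degrading cathepsin Ctsk, at 1.51 ± 0.10 at day 6 and 1.32 ± 0.10 at day 3, and the cathepsin Ctsl, at 0.74 ± 0.09 and 0.44 ± 0.09. The cystatin Cst6, an inhibitor of cathepsins, rose at day 6 by 1.79 ± 0.28.

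Markers of cell types that could be present moved too. The summed linear signal of the keratinocyte list (9 of 10 markers with a probe set) was 14910 to 15351 in CSA and 12060 to 12718 in DMSO at day 6, and 13166 to 13747 in CSA and 8434 to 8583 in DMSO at day 3. Of its 7 tested genes 3 rose at day 6, against 6.41% of all tested genes: the stress keratin Krt6a by 1.66, and the cornified envelope genes Ivl by 2.37 and Sprr1a by 0.78. The keratins Krt14, Krt16 and Krt17 were at 0.24, 0.0056 and -0.05 and, like Lor at 0.79, did not pass at day 6. At day 3, 3 other genes of the list rose, against 7.14%. Krt5 and Trp63 were below the limit on average over the 8 arrays. For fibroblast markers (9 of 10) the summed signal was 37603 to 37818 in CSA and 41983 to 42240 in DMSO at day 6, and 22837 to 22976 in CSA and 21984 to 23776 in DMSO at day 3. Of the 9 tested fibroblast markers, the collagen gene Col3a1 alone passed at day 6 (-0.85 ± 0.08), a count near the 12.5% of all tested genes. At day 3, 2 rose and 2 fell, against 7.14% and 5.52% of all tested genes. The summed signals of both lists therefore also differed at day 6, where the TIMP and Mmp3 calls were made. Those of the keratinocyte list differed at day 3 as well, where 0 of the 8 tested members passed by their representatives. At that day the sums of the fibroblast list overlapped. The part of both lists in the TIMP and Mmp3 calls was not tested. Macrophage markers (10 of 10, 5 above the limit) summed to 847 to 878 in CSA and 734 to 773 in DMSO at day 6, and to 560 to 569 in CSA and 642 to 665 in DMSO at day 3. Endothelial markers (8 of 8, 3 above the limit) summed to 2120 to 2250 in CSA and 1563 to 1627 in DMSO at day 6, and to 1498 to 1643 in CSA and 1641 to 1683 in DMSO at day 3, most of it from the receptor gene Tek. The leukocyte marker Ptprc and the endothelial markers Pecam1 and Cdh5 were below the limit, and 0 markers of these lists were listed at 0 on any array. Neutrophil markers (7 of 8, 2 above the limit) summed to 208 to 331 in CSA and 201 to 242 in DMSO at day 6, overlapping groups, and to 224 to 303 in CSA and 237 to 267 in DMSO at day 3. For the labelled cell type, Pou5f1, Cdh1, Epcam, Sall4 and Alpl were above the limit, whereas Nanog, Sox2, Fut4, Zfp42 and Tdgf1 were below it on average over the 8 arrays. Some of their group means lay above it. Nanog averaged 6.70 in CSA and 7.53 in DMSO at day 6, and Fut4 6.48 in CSA and 6.18 in DMSO at day 3. The reprogramming list (10 of 10) summed to 9146 to 9567 in CSA and 13263 to 13751 in DMSO at day 6, and to 8982 to 9383 in CSA and 7433 to 7831 in DMSO at day 3. Of its 5 tested genes, Pou5f1, which encodes Oct4, fell at day 6 by 1.07, where 6.11% of all tested genes fell. Oct4 and Sox2 are among the factors that doxycycline switches on. Whether the Pou5f1 signal, also part of these sums, came from the doxycycline-driven copy or the cell's own gene was not tested. The epithelial adhesion genes Epcam and Cdh1 fell at day 6 by 0.69 and 0.50, while Sall4 and Alpl, both at -0.12, did not pass. At day 3 Alpl and Cdh1 rose by 1.92 and 0.29, where 7.14% of all tested genes rose. Epcam and Sall4 lay in the other direction at day 3, at -0.37 and -0.33, and Pou5f1 was at 0.49, all without passing. The part of these markers in the differences of Mmp3 and the TIMPs was not tested either.

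The tested genes most like Timp2 over the 8 arrays, by Pearson's correlation of log2 signals, were the actin-binding calponin Cnn2 (0.98), the elastic fibre protein Fbln5 (0.98), Vti1b (0.97), the stress keratin Krt6a (0.97) and the uroplakin Upk3b (0.97). Those most like Mmp14 were the matricellular gene Thbs2 (0.98), Arhgef12 (0.98), Dsel (0.98), Tax1bp3 (0.98) and Wdsub1 (0.98). They were picked as the highest of 12529 genes on arrays that share 4 groups, so these values describe likeness in these arrays only.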

How the data were processed

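RNA of 8 samples in 4 groups of 2 was measured on Affymetrix 3' arrays. Per the labels' protocols, total RNA was checked for integrity, purified and amplified into biotin-labelled cRNA. The authors deposited 1 log2 signal for each of 45037 probe sets and array, and the submitters' processing notes name MAS5, with no version; detection calls, scan dates and batches were not used here. Each array held from 110 to 259 zeros. The platform annotation named 1 gene for 34945 probe sets and several, left unnamed here, for 932, and lacked 9160. Probe sets at or above the 40th percentile of mean signal were tested with limma 3.58.1 in R 4.3.3: 1 mean per group over all 8 arrays (4 residual degrees of freedom), empirical Bayes moderation with an intensity trend, two-sided, Benjamini-Hochberg over 27022 probe sets. The fit was tested on simulated data. The members, gene lists, motifs and settings were chosen with earlier results of these data known. All members are named; of each other list, up to 4 genes with the smallest p among those past the threshold at each day, with further genes (Plau, Reck, Mmp16, the neighbours Mmp12, Mmp1b and Mmp1a, and markers) named after their values were seen. Protein sequences were not used here. Other filters, scalings, a floor, a pseudocount, the replicate number as a block and leaving out each array were tried.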

Additional observations from a re-analysis of the deposited data

Results flagged for a closer look

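Timp2 stood out because the effect of CSA differed between the days: the log2 difference between CSA and DMSO was 0.84 ± 0.06 at day 6 and 0.07 ± 0.06 at day 3, and the interaction was 0.77 ± 0.09 (limma adjusted p = 0.00124, n = 2 arrays per group). By the representative probe set, both CSA arrays lay above both DMSO arrays at day 6, and the groups overlapped at day 3. The interaction ran from 0.72 to 0.82 over the other settings. Its call ended without the intensity trend in the variance prior (limma adjusted p = 0.110), a setting under which 0 of the 27022 probe sets passed the interaction. Of the 6 Timp2 probe sets 1, 1420924_at, passed for CSA at day 3 (0.44 ± 0.10, limma adjusted p = 0.0219).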

How the results depend on the processing

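The rise of Timp2 with CSA at day 6 passed under all 19 other settings (0.82 to 0.87), as did the rises of Timp3 over the days in both treatments and of Timp2 in CSA and Mmp2 in DMSO. Mmp3 over the days passed under 18 of 18, since it was not tested with the 60th percentile filter. Apart from the setting with no filter, Mmp3 entered these through its day 6 arrays, so that count is not independent of the filter. Without the intensity trend 1 member passed for CSA at day 6 in place of 4, 0 in place of 1 for the interaction and 3 in place of 5 for the days in CSA. The interaction count was 2 with quantile normalization, a floor at 5, a pseudocount of 32, and without probe sets whose suffix marks several transcripts or genes, each time through Mmp3. Leaving out 1 array gave 1 to 4 members for CSA at day 6, 0 at day 3, 1 to 2 for the interaction, 3 to 5 for the days in CSA and 5 to 6 in DMSO. The share of all probe sets called was 9.67% for CSA at day 6 and 9.58% at day 3, 4.98% and 4.94% without the filter, 16.4% and 16.6% with the 60th percentile filter, and 2.57% and 1.64% without the trend. For the interaction it was 4.23%, against 2.02%, 8.20% and 0% in these settings. Quantile normalization turned the sign of Mmp10 for CSA at day 6 (-0.0217) and over the days in DMSO (-0.15), of Timp1 over the days in CSA (0.0447) and of Timp2 in DMSO (0.0065); median centring turned Timp1 for CSA at day 3 (-0.0063) and Mmp10 over the days in DMSO (-0.25), and averaging the probe sets of each gene turned Timp2 over the days in DMSO (0.24). Leaving out 1 array spread Mmp10 from -0.46 to 0.72 for CSA at day 6 and from -0.59 to 0.59 over the days in DMSO, Timp4 from -2.22 to 0.22 over the days in CSA, and for CSA at day 3 Mmp2 from -0.57 to 0.34, Mmp3 from -0.20 to 1.01, Mmp14 from -0.0353 to 0.17 and Timp1 from -0.0027 to 0.0103; the Mmp14 interaction ran from -0.0706 to 0.14. Apart from Timp2 over the days in DMSO, none of these passed the threshold as reported. The cause of these changes was not tested. With the replicate number as a block, Mmp2 passed for CSA at day 6 (-0.74, limma adjusted p = 0.0133; 5 members in place of 4), and the block changed no other member's call. The deviations of same-numbered arrays correlated between -0.0034 and 0.03, so the numbers gave no sign of pairing. With no filter Mmp13 passed for the days in DMSO (limma adjusted p = 0.000439, with 1 array listed at 0) and Mmp9 passed in no comparison.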
